A study of Mus musculus with 27 samples.

Results

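The mouse genes named Tex (testis expressed gene) or Spata (spermatogenesis associated) followed directly by a number were compared between WT and Dnmt3b-/- embryos, to ask which share of testis-named genes was derepressed. The group was chosen by a rule on names, set with earlier results of these data known. It holds 55 of the 24065 genes in the count table, 27 Tex and 28 Spata genes. Tex11 and Tex12 were left out by the rule. The RNA-Seq libraries came from 6 whole embryos at E8.5 on the C57BL/6J strain, 3 WT and 3 Dnmt3b-/- littermates. Each library held the total RNA of 1 embryo, depleted of ribosomal RNA, and was read as pairs of 75 bases after a strand-specific preparation. The mutant embryos were homozygous for a Dnmt3b allele whose catalytic exons had been deleted in the germline with an ACTB-Cre deleter, and they came from crosses of heterozygous parents, so the loss concerned every tissue of the embryo. No other allele or treatment is named for either group.

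Tex and Spata symbols record where a transcript was first found and do not define a protein family. Some of the proteins act only in germ cells, in meiosis, in the bridges between dividing germ cells, in the control of transposons or in building the sperm, and others serve functions that every cell needs. In the mouse embryo, CpG islands in the promoters of many germline genes gain DNA methylation after implantation, and DNMT3B is one of the enzymes that place methyl groups on unmethylated DNA. No methylation value was used here, and the results concern RNA only.

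Totals ranged from 41489332 to 58470286 counts per embryo, so that 3 counts, taken as the limit of detection, equalled 2.37 to 3.49 normalized counts. This limit and the counting intervals cover counting error only. Dnmt3b itself stood at 7263, 13960 and 6280 normalized counts in WT embryos 1, 2 and 3 and at 4063, 4541 and 4740 in the Dnmt3b-/- embryos (log2 fold change -1.04, adjusted p = 0.0169), and these counts include exons outside the deleted part. All 14 markers of E8.5 embryonic tissues were detected well enough to be tested, and 6 of them passed the adjusted p without reaching the fold threshold. Over all tested genes 17.6% were higher and 18.1% lower by the adjusted p alone. Pax6, Shh and Sox1 were higher in the mutants (log2 fold changes 0.85, 0.83 and 0.54) and Kdr, Nkx2-5 and Sox2 were lower (-0.46, -0.79 and -0.48), and their part in the members' values was not tested. These were named after their values were seen. WT embryo 2 stood apart in 7 markers of extraembryonic endoderm, which summed to 174400 normalized counts there against 54980 and 19840 in WT embryos 1 and 3 and 38960, 25490 and 10890 in Dnmt3b-/- embryos 1, 2 and 3. Its sum over the 14 markers of E8.5 tissues, 37460 normalized counts, was the lowest of the 6 embryos. Those sums were 62280 and 79130 in WT embryos 1 and 3 and 39650 to 56690 in the mutants, and the cause was not tested. In whole embryos, a smaller number of cells of a type and less RNA per cell cannot be told apart.

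A minority of the testis-named genes was higher in Dnmt3b-/- embryos. Of the 55 members, 23 reached the mean of 10 raw counts needed for the test, and 3 of these were called higher with an adjusted p under 0.05 and more than 2-fold higher counts, which is 13% of those tested and 5.45% of all members. These were Tex19.1, Tex14 and Tex15, all of which act in germ cells. Across all 15114 tested genes 2.12% were called higher. A single member, Spata5l1, was called lower (4.35% of those tested), beside 3.78% of all tested genes. Over the whole transcriptome 320 genes were called higher and 571 lower, 246 and 710 when libraries were scaled by total counts, and 312 and 134 when a trend on exonic GC content and length was removed from each library.

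By the adjusted p alone 5 members were higher, beside 17.6% of all tested genes, and 2 were lower, beside 18.1%. The other 16 did not pass. An unadjusted p below 0.05 is easier to reach, and its share over all genes is not given here. Counts of list genes at that limit, given below, therefore have no background. The normalized counts of the genotypes did not overlap for 6 tested members that were higher in the mutants and 3 that were lower, where 25.3% and 26.5% of all tested genes separated in these directions. The median log2 fold change was 0.15 over the tested members and -0.03 over all tested genes. It was 0.44 over the 12 tested Tex genes and 0.07 over the 11 tested Spata genes, and the 3 genes called higher were all Tex genes. The count of 3 was 1 without WT replicate 1, when only Tex14 was called, and 4 without WT replicate 2, when Spata31d1a passed the count minimum and was called too. Spata31d1a, with 1, 2 and 0 raw counts in WT and 21, 1 and 30 in mutants, reached the minimum there only because it was higher in mutants. The same holds without Dnmt3b-/- replicate 2, when Spata31d1a and Tex14 were called. Without a count minimum the count was 5, with Spata31d1a and Tex13 added. Tex11 and Tex12 were themselves called higher, and with both counted 5 of 25 tested genes (20%) would be higher. In WT embryos Tex11 had 5, 6 and 11 raw counts and Tex12 had 0, 0 and 2, below the minimum on average. All 23 tested members had a WT mean of at least 10 raw counts. Tex11 and Tex12 could thus be tested only because they were higher in mutants, which raises the share by construction.

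**Figure D1:**
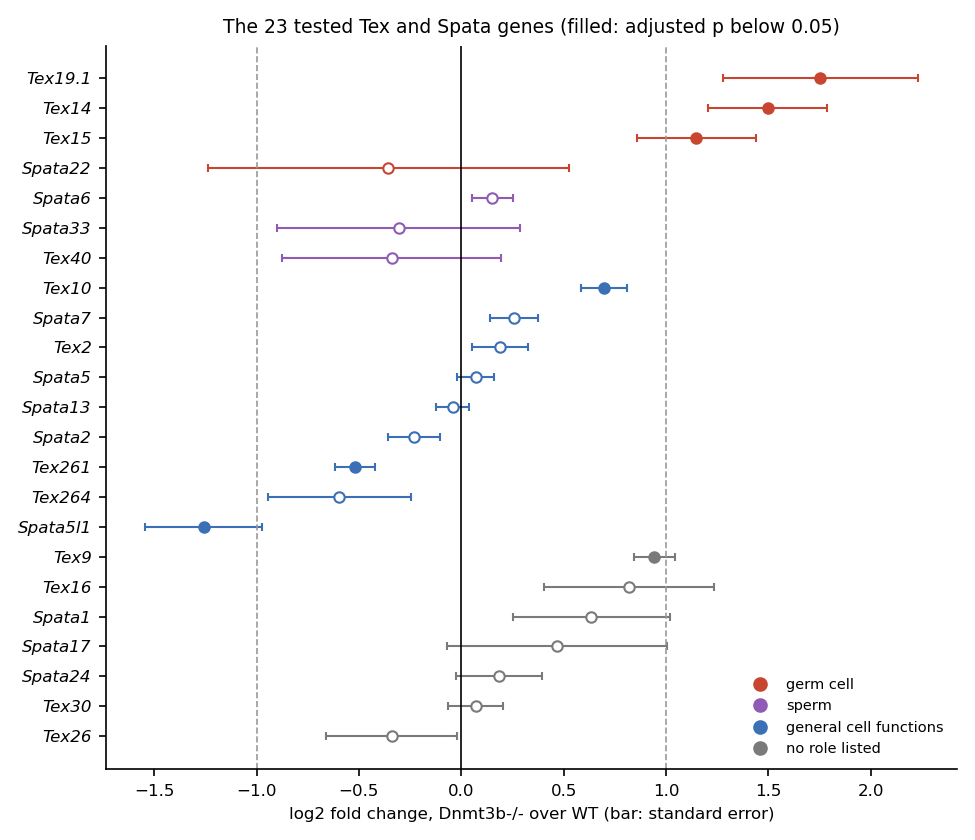
The log2 ratio of mutant to WT counts (horizontal axis) for the 23 tested members, grouped by role, with bars for the standard error, filled points for an adjusted p below 0.05 and dashed lines at a fold change of 2. Tex19.1, Tex14 and Tex15 lie past the upper line, Spata5l1 lies past the lower line and the other 19 members lie between the lines.

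The 3 genes called higher belong to the 5 members with a known part in germ cell meiosis, germ cell bridges or transposon control. This role list was chosen with earlier results of these data known, so it cannot test whether such genes are enriched among the calls. The upstream sequences of Tex14 and Tex19.1 are shown because these were the called genes for which RefSeq promoter windows (GRCm38.p6) were held. The windows cover the 250 bases before the annotated start on the plus strand, at chr11:87404815-87405064 for Tex14 and chr11:121145893-121146142 for Tex19.1, and the CpG dinucleotides, the sites of methylation, are in capitals.
Tex14: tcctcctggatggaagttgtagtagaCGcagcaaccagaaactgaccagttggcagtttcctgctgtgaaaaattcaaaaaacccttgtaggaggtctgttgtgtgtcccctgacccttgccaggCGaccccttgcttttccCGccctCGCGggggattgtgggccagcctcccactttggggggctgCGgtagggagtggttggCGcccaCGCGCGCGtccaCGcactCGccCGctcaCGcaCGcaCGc
Tex19.1: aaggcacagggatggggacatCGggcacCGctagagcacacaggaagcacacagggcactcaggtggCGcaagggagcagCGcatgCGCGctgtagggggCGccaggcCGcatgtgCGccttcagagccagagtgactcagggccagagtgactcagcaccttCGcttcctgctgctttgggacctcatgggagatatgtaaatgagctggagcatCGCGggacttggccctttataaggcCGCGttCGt
The stretch before Tex14 held 17 CpG dinucleotides, most of them within the bases closest to the start, and that before Tex19.1 held 15 spread along its length. Each stretch contained 1 match to GCGGGA, a motif bound by E2F factors, on the reverse strand with its first base 111 bases before the start in Tex14 and on the forward strand 33 bases before the start in Tex19.1. Neither contained CACGTG, the E-box motif.

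Tex14 encodes a protein of the intercellular bridges that join dividing germ cells, and lies at chr11:87405065-87555823 (GRCm38). Its normalized counts were 37.1, 36.6 and 38.8 in WT embryos 1, 2 and 3 and 116, 83.8 and 119 in the Dnmt3b-/- embryos. The WT embryos were nearly equal and every mutant embryo lay above them. The mean rose from 37.5 ± 1.15 to 106 ± 19.4 (SD, n = 3 embryos each), which gave a log2 fold change of 1.497 with a standard error of 0.29 and an adjusted p of 0.00544 in the quasi-likelihood test of edgeR. Its level stayed low, at 0.16 FPKM (fragments scaled to exon length and library size) in WT and 0.45 in Dnmt3b-/- embryos. Tex14 was called in each of the 13 alternatives run, those without 1 embryo included, with log2 fold changes from 1.42 to 1.64.

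Tex19.1, at chr11:121146143-121148314, encodes a protein that restrains retrotransposons in germ cells and is also known from the placenta. It had 43.4, 83.5 and 19.4 normalized counts in WT embryos 1, 2 and 3 and 200, 158 and 131 in the mutants. The genotypes did not overlap, and the WT embryos differed more among themselves than those of Tex14 did. The mean rose from 48.8 ± 32.4 to 163 ± 34.6 (SD, n = 3 embryos each), or from 0.58 to 1.95 FPKM. The log2 fold change was 1.75 with a standard error of 0.48, and the adjusted p was 0.022. In the 3 WT embryos Tex19.1 followed the order of the extraembryonic endoderm markers, highest in embryo 2 and lowest in embryo 3. Tex15, Spata22, Dnmt3b and Pou5f1 had the same order, so it was not particular to Tex19.1. The sums of the endoderm markers overlapped between the genotypes, with a median log2 fold change of -1.32 over 7 genes. Of the 7, edgeR called 1 lower, DESeq2 called 2, and edgeR with the trend on GC content and length removed called none, with 3 at an unadjusted p below 0.05 before that correction. Their part in the result was not tested. Without WT replicate 2 the log2 fold change of Tex19.1 was 2.36. The call was lost without WT replicate 1 (adjusted p = 0.0773), Dnmt3b-/- replicate 1 (0.0646) or Dnmt3b-/- replicate 2 (0.0618).

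Tex15, at chr8:33570544-33585585, encodes a protein needed for repair of meiotic DNA breaks and for silencing of transposons in male germ cells. It was the most abundant of the germ cell members, with 617, 979 and 413 normalized counts in WT embryos 1, 2 and 3 and 1160, 1618 and 1663 in Dnmt3b-/- embryos. Each mutant embryo exceeded each WT embryo, with WT embryo 2 closest to the mutants. The mean rose from 669 ± 287 to 1480 ± 278 (SD, n = 3 embryos each), or from 1.66 to 3.67 FPKM. The log2 fold change was 1.15 with a standard error of 0.29, and the adjusted p was 0.0161. Its exons have the lowest GC content of the tested members, 37.4%, and with the trend on GC content and length removed its log2 fold change was 0.60 with an adjusted p of 0.156. Its adjusted p was 0.0563 without WT replicate 1, 0.0618 without Dnmt3b-/- replicate 2 and 0.0611 without Dnmt3b-/- replicate 3, and without WT replicate 3 the log2 fold change of 0.89 (adjusted p = 0.0252) fell short of the fold threshold.

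The remaining germ cell members did not pass the test or were too low for it. Spata22, which acts in meiotic recombination, had 8.69, 50.4 and 5.29 normalized counts in WT embryos 1, 2 and 3 and 9.99, 27.9 and 11.3 in the mutants, so the genotypes overlapped (log2 fold change -0.36, standard error 0.88, adjusted p = 0.784). WT embryo 2, with the most extraembryonic endoderm marker RNA, also held the most Spata22 RNA, a link that was not tested, and without it the log2 fold change was 1.20 (adjusted p = 0.265). Tex19.2, the close relative of Tex19.1, had 10 raw counts in all WT embryos together and 3 in all mutants, below the minimum for testing. Reads of such close copies may have been split between them or left out in counting.

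**Figure D2:**
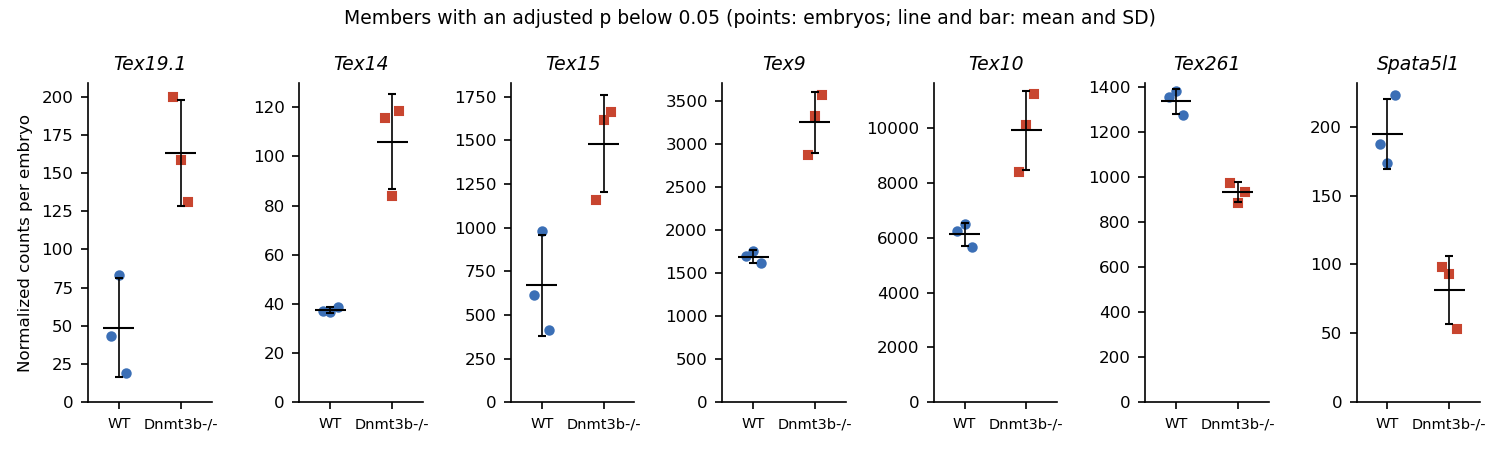
Normalized counts (vertical axis, each panel from 0) of the 7 members with an adjusted p below 0.05, with a point for each of 3 WT and 3 Dnmt3b-/- embryos and the mean and SD. The points of the genotypes are separate in each panel, and WT points spread most, relative to their mean, for Tex19.1 and Tex15.

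Marker lists for germ cells and for other cells that could bear on these genes were counted in the same embryos, and their part in the results was not tested. Of 8 markers of primordial germ cells 6 were tested and edgeR called none, while 2 had an unadjusted p below 0.05 and DESeq2 called 1 higher, Dppa3. Their summed normalized counts were 2547 to 3471 in WT and 2331 to 3286 in Dnmt3b-/- embryos, with a median log2 fold change of 0.13. Kit, Prdm1 and Tfap2c made up most of these sums, which therefore say little about the rarer markers. Dppa3 had 7.11, 22.9 and 16.8 normalized counts in WT and 34.0, 20.9 and 171.7 in mutants. Mutant embryo 3 stood far above the rest and the genotypes overlapped (log2 fold change 2.29, adjusted p = 0.0637 in edgeR). Pou5f1, singled out after its values were seen, had 836.5 normalized counts in WT embryo 2 and 28.96 to 93.76 in the other embryos. Of 12 markers of Sertoli, Leydig and other gonadal cells 8 were tested, edgeR called none, 3 had an unadjusted p below 0.05 and DESeq2 called none. Sox9, named after its values were seen, was higher by the adjusted p alone (log2 fold change 0.64, adjusted p = 0.0145), and none was lower. The sums were 2594 to 6191 in WT and 2686 to 4090 in mutants, with Insl3 at 0 counts in every embryo. In WT embryo 2, the highest, Rhox5 alone held 3583 normalized counts. Of 7 trophoblast and decidua markers 4 had no count in any embryo and 2 were tested, with no call and no unadjusted p below 0.05 in edgeR and no call in DESeq2, and sums of 212.9 to 242.4 in WT and 196.6 to 353.6 in mutants.

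Members that build or equip the sperm did not pass the test where they could be tested. Spata6, needed to join the sperm head to its tail, had 1180, 1097 and 1304 normalized counts in WT and 1294, 1321 and 1363 in Dnmt3b-/- embryos (log2 fold change 0.15, standard error 0.10, adjusted p = 0.279). At 9.93 FPKM in WT it was well above the other sperm members in level. Spata33, which holds calcineurin at sperm mitochondria, had 16.6, 20.6 and 25.6 normalized counts in WT and 15.0, 29.1 and 6.78 in mutants (log2 fold change -0.31, adjusted p = 0.722). Tex40, also named Catsperz, a part of the calcium channel of the sperm tail, had 14.2, 11.4 and 8.82 normalized counts in WT and 9.99, 8.14 and 9.04 in mutants (log2 fold change -0.34, adjusted p = 0.655). The standard errors of Spata33 and Tex40, 0.59 and 0.53, leave room for changes of about the size of the fold threshold, so their depth limits what can be said. The other 4 sperm members were below the minimum, with Spata16 at 3 raw counts in all WT and 4 in all mutant embryos, Tex38 at 9 and 14, Tex101 at 2 and 10, and Spata19 at 0 in every embryo.

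Of the 9 tested members with general cell functions, 1 was higher and 2 were lower by the adjusted p, and 6 did not pass. Tex10, a component of complexes of ribosome maturation, was the member with the highest level per length, 38.2 FPKM in WT. Its normalized counts were 6224, 6480 and 5655 in WT and 8381, 10110 and 11230 in Dnmt3b-/- embryos. Every mutant embryo lay above the WT embryos, and the log2 increase of 0.70 (standard error 0.11, adjusted p = 0.00249) was under the fold threshold. With the trend on GC content and length removed it was 0.45 (adjusted p = 0.0198). Of the exons of Tex10, 6.76% overlap the gene Invs on the opposite strand, and since the strand setting of the counting is not given in the sources used here, reads of the overlap cannot be assigned with certainty.

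Spata5l1 and Spata5 encode related ATPases that also serve ribosome maturation. Spata5l1, at chr2:122630625-122636478, had 187, 174 and 223 normalized counts in WT and 97.9, 93.1 and 53.1 in Dnmt3b-/- embryos. Each mutant embryo lay below each WT embryo, and the mean fell from 195 ± 25.5 to 81.3 ± 24.6 (SD, n = 3 embryos each). The log2 fold change was -1.26 with a standard error of 0.29, and the adjusted p was 0.0104. Its exons have the highest GC content of the tested members, 68.2%, and with the trend on GC content and length removed the log2 fold change was -0.45 and the adjusted p 0.286. Spata5 had 3663, 4287 and 3871 normalized counts in WT and 3735, 4218 and 4454 in mutants, which overlapped (log2 fold change 0.07, standard error 0.09, adjusted p = 0.581).

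Tex261, a homologue of a yeast protein that helps cargo leave the endoplasmic reticulum, had 1353, 1381 and 1274 normalized counts in WT and 975, 886 and 935 in Dnmt3b-/- embryos. It fell in each mutant embryo below the WT range, by less than the fold threshold (log2 fold change -0.52, standard error 0.10, adjusted p = 0.00453), and the adjusted p was 0.224 with the trend on GC content and length removed. Tex264, a receptor for the degradation of endoplasmic reticulum, had 293, 571 and 285 normalized counts in WT and 363, 218 and 177 in mutants. WT embryo 2 was the highest and the genotypes overlapped (log2 fold change -0.60, adjusted p = 0.221).

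Tex2, a lipid transfer protein of the endoplasmic reticulum, had 1217, 1665 and 1242 normalized counts in WT and 1578, 1468 and 1645 in Dnmt3b-/- embryos (log2 fold change 0.19, adjusted p = 0.321). Spata2, an adaptor between a deubiquitinase and a ubiquitin ligase of inflammatory signalling, had 817, 790 and 868 normalized counts in WT and 716, 607 and 782 in mutants (log2 fold change -0.23, adjusted p = 0.188). Both genes kept within a narrow range, and the genotypes overlapped for Tex2 but not for Spata2. Spata7, a protein of the photoreceptor cilium, had 706, 688 and 778 normalized counts in WT and 903, 779 and 917 in mutants (log2 fold change 0.26, adjusted p = 0.12). Spata13, a guanine exchange factor for small GTPases, had 5541, 5836 and 4958 normalized counts in WT and 5129, 5171 and 5567 in mutants (log2 fold change -0.04, standard error 0.08, adjusted p = 0.717). Spata18 and Spata2l, with at most 8 and 7 raw counts in any embryo, were not tested.

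Of the 32 members without a listed role 7 were tested. Tex9, whose protein is found at centrosomes and cilia, was the single one to pass, with 1699, 1759 and 1615 normalized counts in WT and 2867, 3318 and 3565 in Dnmt3b-/- embryos. The genotypes were well apart, and the increase stopped just short of the fold threshold (log2 fold change 0.94, standard error 0.10, adjusted p = 0.00065). Without Dnmt3b-/- replicate 1 it passed, with a log2 fold change of 1.04, and with the trend on GC content and length removed the log2 fold change was 0.61 (adjusted p = 0.00316). Of its exons 6.11% overlap Mns1 on the opposite strand. The other tested members were Tex16 (log2 fold change 0.82, adjusted p = 0.16), Spata1 (0.64, 0.231), Spata17 (0.47, 0.534), Spata24 (0.18, 0.526), Tex30 (0.07, 0.718) and Tex26 (-0.34, 0.445). For each of these the values of the genotypes overlapped. With the trend on GC content and length removed, Tex30 turned to -0.45 with an adjusted p of 0.0362, Tex26 stood at -0.71, Tex16 at 0.19 and Spata1 at 0.10, and the latter 3 did not pass. The sign also turned under this correction for Spata2, Spata5, Spata6, Spata13, Spata33 and Tex264, which did not pass in either fit.

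In level, 14 members (25.5%) exceeded a mean of 1 FPKM in WT embryos, against 48.5% of the 23856 genes with an exon length. The order per length ran from Tex10 through Spata5 at 25.0, Tex30 at 22.9, Tex261 at 19.14 and Spata13 at 14.5 FPKM down to Tex15 at 1.66, and among the germ cell and sperm members Spata6 and Tex15 alone were in this range. Spata5 and Tex30 (SD 2.02 and 1.64 FPKM, n = 3) did not differ beyond their spread. The test reached 41.8% of the members and 62.8% of all genes, and 10.9% of members and 19.5% of all genes had 0 counts in every embryo.

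The 32 untested members had low counts in both genotypes, with 19 of them over the limit of 3 counts in some embryo and 4 over 10. Spata3, Spata19, Spata31, Tex13a, Tex28 and Tex36 had 0 counts in all 6 embryos, and 13 untested members, these included, had at most 3 counts in any embryo. The highest count of an untested member in 1 embryo was 30, and no mean exceeded 0.13 FPKM. Summed over all 32 members there were 39, 54 and 57 raw counts in WT embryos and 65, 36 and 75 in Dnmt3b-/- embryos. Spata31d1a, Tex13 and Spata31d1c, chosen here after their values were seen, held more than the whole difference, since the other 29 summed to 146 raw counts in WT and 86 in mutants. Of the 26 with any count, 11 had more counts in mutants per library size and 15 had fewer.

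Tex13, on the X chromosome and now named Tex13b, was the untested member with the most even difference, with 1, 0 and 0 raw counts in WT embryos and 10, 6 and 10 in Dnmt3b-/- embryos. It was the only one over 3 counts in every mutant embryo and at or under 3 in every WT embryo. The ratio of counts per library size was 31.0 with a 95% counting interval of 5.09 to 1270, and the adjusted p without a count minimum was 0.0276. Tex13a, its relative on the same chromosome, had no counts.

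Spata31d1a, from a family of close copies on chromosome 13, had 1, 2 and 0 raw counts in WT and 21, 1 and 30 in Dnmt3b-/- embryos. The counts lay in mutant embryos 1 and 3, and embryo 2 was within the WT range. The ratio was 20.7 (95% counting interval 6.69 to 103) and the adjusted p without a count minimum 0.0423. Spata31d1c had 12 raw counts in Dnmt3b-/- embryo 3 and 0 in the other embryos. Spata31d1b had 1 raw count in total, Spata31d1d had 6 in WT and 1 in mutants, and Spata31 had none. Reads shared between these copies could have been split or discarded in the counting. Tex101 had 0, 0 and 2 raw counts in WT and 4, 4 and 2 in mutants, a ratio of 5.96 (95% counting interval 1.27 to 56.0), with an adjusted p of 0.277 without a count minimum.

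Differences in the other direction were as sparse. Tex21 had 4, 15 and 7 raw counts in WT and 2, 0 and 0 in Dnmt3b-/- embryos, a ratio of 0.0917 (95% counting interval 0.0105 to 0.366). Every WT embryo lay above 3 counts and every mutant at or below. Its adjusted p without a count minimum was 0.101. Spata9 had 0, 6 and 5 raw counts in WT and 0 in each mutant embryo. Tex22 had 16 raw counts in each genotype. The remaining untested members with counts, Spata4, Spata20, Spata21, Spata25, Spata32, Spata45, Tex24, Tex29, Tex33, Tex35, Tex37 and Tex43, had at most 8 in any embryo.

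**Figure D3:**
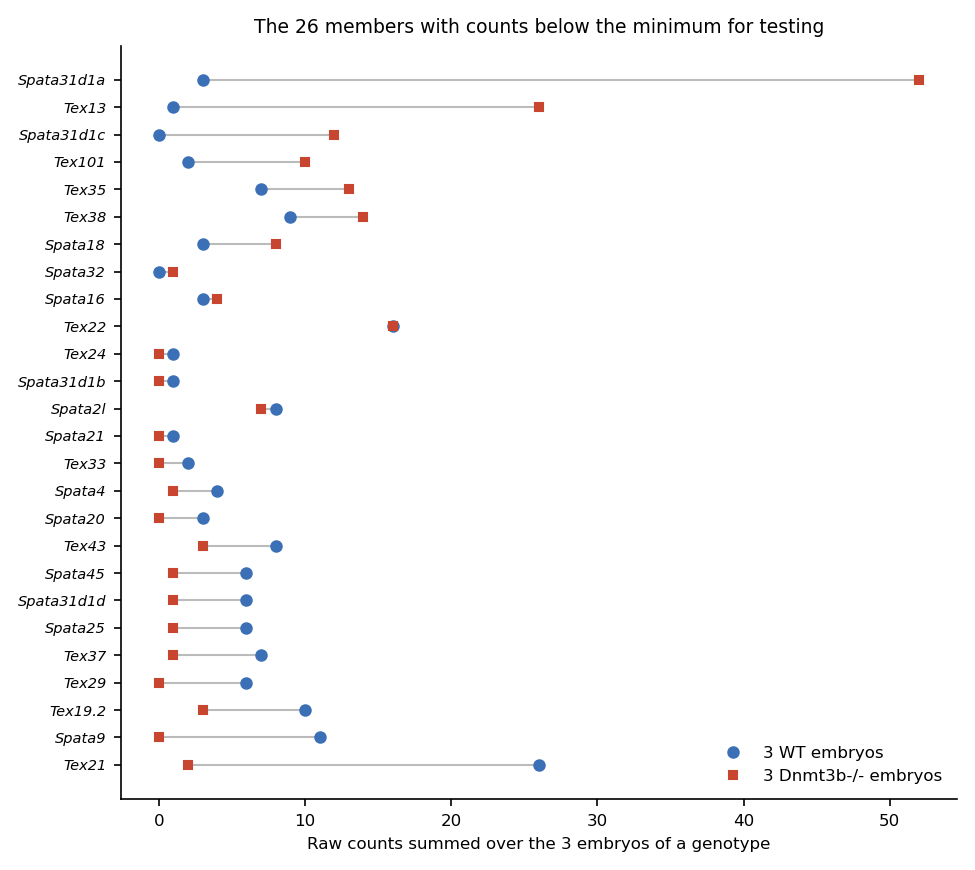
Raw counts summed over the 3 WT (circles) and the 3 Dnmt3b-/- embryos (squares) for the 26 members that had counts but not the mean of 10 needed for testing. Spata31d1a and Tex13 lie farthest toward the mutants, with 52 and 26 counts against 3 and 1, and Tex21 farthest toward WT, with 26 against 2.

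Promoter windows of 300 bases, 250 before and 50 after the annotated start, were held for 48 of the 55 members. Spata24, Spata2l, Tex13a, Tex15, Tex22, Tex24 and Tex43 had no entry. The ratio of observed to expected CpG dinucleotides differed between tested and untested members much as it did over the whole table. It exceeded 0.65 in 16 of 21 tested members (76.2%, median 0.80) and in 3 of 27 untested members (11.1%, median 0.17), beside 63.7% of the windows of all tested genes and 7.5% of those of all untested genes. The values of Tex14 (0.69) and Tex19.1 (0.58) lay below the median of the tested members, and that of Spata5l1 was 0.80. Tex13 (0.73), Tex101 (0.70) and Spata18 (0.85) were the untested members over 0.65, and Spata31d1a held 1 CpG in its window (0.040). Tex16 was tested with no CpG in its window.

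The motif GCGGGA was searched on both strands of these windows, without regard to overlap with other motifs. It was present in 17 of 21 tested members (81.0%), beside 35.7% of the windows of all tested genes and 32.9% of those of all genes called higher. Tex14 and Tex19.1 were the only called members with a match, and the others with a match, Spata22 included, were not called. The motif was found in none of the 27 windows of untested members, beside 7% of those of all untested genes. The windows of Tex10, Spata2, Spata5l1 and Tex16 had no match among the tested members. CACGTG, which reads the same on both strands, was present in 5 of 48 windows (10.4%), those of Tex10, Tex36, Spata16, Spata31d1a and Spata31d1b, beside 8.19% of all windows. A match describes the letters of a window and not a binding site.

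**Figure D4:**
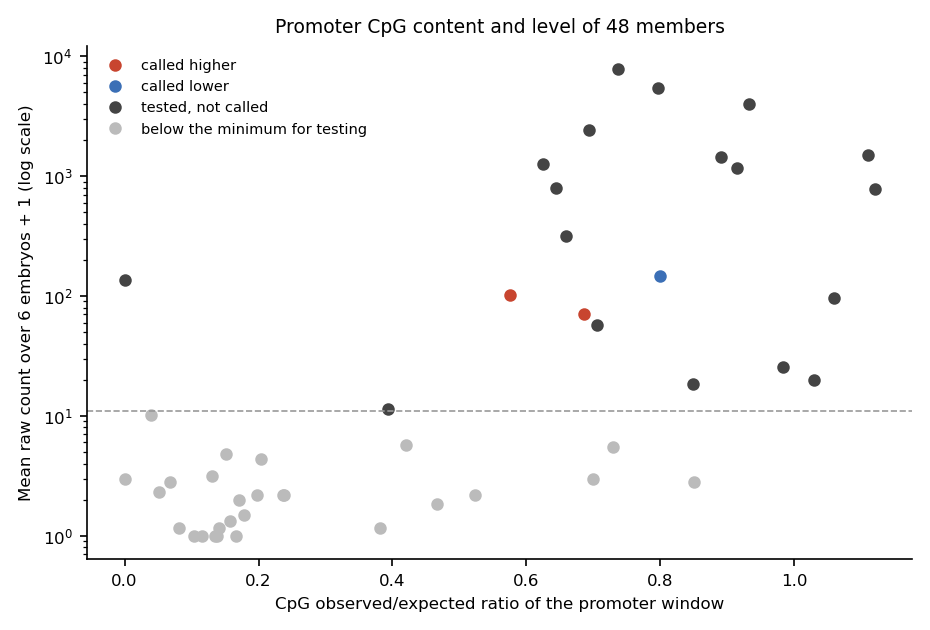
The CpG observed/expected ratio of the promoter window (horizontal axis) and the mean raw count over the 6 embryos plus 1 (vertical axis, log scale) for 48 members, coloured by call, with a dashed line at the minimum for testing. Tested members lie mostly at ratios above 0.65 and untested ones mostly below, and Tex14 and Tex19.1, called higher, lie at 0.69 and 0.58.

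Proteins known to act with a member were looked at from a list of 30 genes, 20 of them tested. A single one, Piwil2, was called higher, which is 5% of those tested, beside 2.12% of all tested genes. Its normalized counts were 8.69, 30.9 and 9.70 in WT and 299.6, 201.2 and 235 in Dnmt3b-/- embryos (log2 fold change 3.94, standard error 0.49, adjusted p = 0.001). PIWIL2 binds the small RNAs that guide transposon silencing in male germ cells, a pathway in which TEX15 also acts. The median log2 fold change over the 20 genes was 0.00, and none was called lower by edgeR or by DESeq2, while 8 had an unadjusted p below 0.05. Over all tested genes 17.6% were higher and 18.1% lower by the stricter adjusted p alone, so these 8 do not by themselves set the list apart. Named after their values were seen, Gopc was higher by the adjusted p alone (log2 fold change 0.66, adjusted p = 0.00215), and Pick1 (-0.43, 0.0312), Senp3 (-0.74, 0.000491) and Wdr18 (-0.74, 0.0015) were lower. With the trend on GC content and length removed these were 0.39 for Gopc, 0.05 for Pick1, -0.38 for Senp3 and -0.30 for Wdr18, of which Pick1 did not pass (adjusted p = 0.774). SENP3 and WDR18 are found in complexes with TEX10, which was higher. The 10 list genes below the count minimum were not tested. Of these, also named after their values were seen, Ly6k had 0 raw counts in each WT embryo and 20, 12 and 15 in Dnmt3b-/- embryos. Ppp3r2 had 1, 2 and 0 raw counts in WT and 3, 9 and 21 in mutants, and the genotypes overlapped for the rest.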

How the data were processed

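RNA-Seq was analysed for 3 WT and 3 Dnmt3b-/- E8.5 embryos, with genotypes taken from the labels. Other libraries were not analysed here. According to the methods, reads were aligned to mm10 with TopHat2 2.0.12 and counted in RefSeq exons with HTSeq-count 0.6.0, and the raw counts were deposited. The RefSeq release and the strand setting are not given in the sources used here. The deposited normalized signal is the raw count divided by a DESeq2 1.4.5 size factor, and it was used only to check that this is so. The authors also deposited a log2 fold change and an adjusted p-value from their own DESeq2 comparison, and these were not used.

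Genes with a mean of at least 10 raw counts over the 6 embryos were tested by quasi-likelihood in edgeR 4.0.16 (R 4.3.3), with TMM normalization and Benjamini-Hochberg adjustment over all 15114 tested genes. Calls required an adjusted p under 0.05 and a difference of more than 2-fold. Normalized counts are raw counts scaled to the mean effective library. Standard errors were derived from the log2 fold change and the square root of F. P-values measure the spread between these littermates, and an exact permutation test of 3 against 3 could not go below 0.1. For untested genes the ratio of summed counts per effective library carries an exact 95% counting interval. FPKM were computed from raw counts and RefSeq exon lengths (99.1% of genes matched by current or older symbol). The fits were tested on simulated data. Alternatives were RLE size factors, total counts, no count minimum, a mean of at least 50 counts, DESeq2 1.42.0, a replicate block, removal of a spline on exonic GC content and length (5 degrees of freedom each), the adjusted p alone, and each embryo left out in turn.

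The members, role lists, marker lists and tests were chosen with earlier results of these data known. Values in every embryo are given for members called, with an adjusted p below 0.05, or tested and on a role list. Of the genes that act with members only called ones were to be named, with Dnmt3b as the check of the labels. Names outside this rule are stated as such, and the count with Tex11 and Tex12 is an addition to it.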

Additional observations from a re-analysis of the deposited data

How the results depend on the processing

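Across the alternatives the number of members called higher was 3 with RLE size factors, total counts, a mean of at least 50 counts, DESeq2 and the replicate block, 2 with the GC content and length trend removed, and 5 without a count minimum (49 members tested) or by the adjusted p alone. Leaving out 1 embryo gave 1 to 4, and the 4 included Spata31d1a, which reached the count minimum only through its mutant counts. The number called lower was 1 in each of these except with the GC content and length trend removed, where it was 0 (edgeR, 7 of 23 members at an unadjusted p below 0.05 without that correction), and by the adjusted p alone, where it was 2, and leaving out 1 embryo gave 1 in each case. The median log2 fold change of the tested members, 0.15, was 0.074 with total counts, -0.054 without a count minimum, 0.18 with a mean of at least 50 counts and 0.093 with the GC content and length trend removed, and ranged from 0.12 to 0.19 without 1 embryo. Over all genes 2654 were higher and 2741 lower by the adjusted p alone, 134 were called lower with the trend removed, and leaving out 1 embryo gave 242 to 381 called higher and 391 to 775 called lower. Lowering the count minimum and the fold threshold changes which genes can be called by construction, and the cause of the other shifts was not tested. No called log2 fold change of a member reversed its sign. Same-numbered embryos of the genotypes did not deviate together (r = -0.05, -0.15 and -0.01 across genes), and differently numbered ones gave r from -0.08 to 0.14. Such correlations of deviations from means of 3 embryos cannot decide whether the numbers pair littermates. With the replicate block 3 members were called higher and 1 lower, with a median of 0.16. Members under about 10 counts per embryo are limited by depth.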

Other observations

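Other genes with testis or sperm names, those beginning with Spag, Spaca, Tssk, Tsga, Odf or Catsper, numbered 42 in the count table, and 18 were tested. Of these 2 were called higher (11.1%, beside 2.12% of all tested genes) and 1 lower (5.56%, beside 3.78%), with a median log2 fold change of 0.21. The same 3 genes were the ones called in a list of 29 spermatid and sperm genes, of which 9 were tested and 20 were too low. Named after their values were seen, they were Spaca1, an acrosome membrane protein (log2 fold change 2.88, adjusted p = 0.00393), Spag16, a protein of the axoneme (1.28, 0.00468), and Spag4, a protein of the spermatid nuclear envelope (-1.65, 0.011). With the trend on GC content and length removed Spaca1 was still called (2.69, adjusted p = 0.00874), while Spag16 (0.95, 0.0195) fell short of the fold threshold and Spag4 (-1.10, 0.0649) did not pass. Prm1 and Prm2, the protamines that pack sperm DNA, had 1 and 3 raw counts over all 6 embryos, and Prm3, Tnp1, Tnp2, Akap4, Smcp and Spaca4 had 0 in every embryo. Other untested genes of that list, also named after their values were seen, separated the genotypes in both directions. Akap3 had 0, 1 and 2 raw counts in WT and 6, 9 and 7 in mutants. Hspa1l (12, 7 and 8 in WT, 2, 0 and 0 in mutants) and Tssk6 (19, 8 and 9, then 7, 0 and 0) were lower.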
